A study of Mus musculus with 12 samples.

Results

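Expression of 42 lysosomal genes was measured in LSECs, the sinusoidal endothelial cells of the liver, which line its capillaries and take up material from blood at a high rate. The genes encode hydrolases, membrane proteins, proton pump subunits and the transcription factor TFEB. They were listed by name and not by a rule on their values, but with earlier results of these data known. All 42 were among the 24011 genes that the platform annotation names in the deposited table, each with a single row. Cells were taken with CD146 beads from C57BL/6J mice aged 3 to 4 months, and each of 12 Affymetrix arrays holds RNA from a pool of 3 mice. The 4 genotypes had 3 arrays each: wild type (WT), a knockout of Stab1 (Stab1KO), a knockout of Stab2 (Stab2KO) and a double knockout that lacks both (DKO). The 2 genes encode the stabilins, large scavenger receptors of this endothelium. The labels do not say how the alleles were made or whether the WT mice were littermates of the knockouts, and the p-values measure the spread between these pools.

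Endocytosed ligands are carried through endosomes to lysosomes, where a proton pump keeps the lumen acid and hydrolases with low pH optima take proteins, glycosaminoglycans, glycoproteins, sphingolipids and nucleic acids apart. LSECs clear large amounts of such material from blood, glycosaminoglycans and collagen fragments among it, and stabilins deliver part of it to this compartment. TFEB is known to activate many lysosomal genes together through promoter elements that hold the letters CACGTG.

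Promoters are shown for 4 members because their stretches of 250 bases before the gene's start differ in that element. RefSeq's table of promoters (GRCm38.p6) gave windows of 300 bases, 250 before and 50 after the start, for 36 of the 42 members. Ctsb, Ctsh, Galns, Asah1, Npc1 and Atp6v1h had no match. CACGTG, which reads the same on both strands, was found in a window of 14 of these 36 genes (38.9%), against 8.09% of the 27025 genes in the table and 7.15% of all its windows. Windows of Ctsa, Ctsd, Mcoln1, Lamp1 and Gla held it at least 2 times. Capitals mark CACGTG in the sequences below, which run 5′ to 3′ on the gene's strand. They lie at chr9:59539290-59539539 (plus strand), chrX:134601006-134601255 (minus strand), chr11:101069844-101070093 (plus strand) and chr8:13158911-13159160 (plus strand).
Hexa: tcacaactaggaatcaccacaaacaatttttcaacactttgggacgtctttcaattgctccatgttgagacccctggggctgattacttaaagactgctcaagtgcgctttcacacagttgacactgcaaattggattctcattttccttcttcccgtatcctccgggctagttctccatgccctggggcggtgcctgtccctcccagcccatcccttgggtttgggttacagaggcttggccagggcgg
Gla: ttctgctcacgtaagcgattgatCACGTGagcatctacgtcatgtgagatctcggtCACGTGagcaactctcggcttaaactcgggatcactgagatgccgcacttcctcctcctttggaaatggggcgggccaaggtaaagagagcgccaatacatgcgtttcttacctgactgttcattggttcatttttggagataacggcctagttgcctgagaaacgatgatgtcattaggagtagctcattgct
Naglu: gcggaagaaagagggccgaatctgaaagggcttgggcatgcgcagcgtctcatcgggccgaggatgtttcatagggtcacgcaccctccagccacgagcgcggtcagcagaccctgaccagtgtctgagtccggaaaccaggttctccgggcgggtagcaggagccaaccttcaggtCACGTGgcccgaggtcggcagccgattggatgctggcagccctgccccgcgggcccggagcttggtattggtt
Lamp1: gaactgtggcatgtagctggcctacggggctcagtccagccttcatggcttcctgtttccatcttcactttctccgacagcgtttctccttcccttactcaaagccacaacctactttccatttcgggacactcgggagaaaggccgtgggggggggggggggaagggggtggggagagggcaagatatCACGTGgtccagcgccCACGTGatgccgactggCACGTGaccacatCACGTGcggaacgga
The stretch before Hexa held no CACGTG. Members called in a contrast below are Hexa, Gla, Naglu, Man2b1 and Lamp2, while Lamp1 was not called. The windows of Man2b1 and Lamp2, not printed here, held no CACGTG either. The matches before Gla began 227 and 194 bases before the start, that of Naglu 73 bases before it, and the 4 of Lamp1 between 61 and 15 bases before it. The full CLEAR consensus, a longer palindrome around CACGTG that is known from lysosomal promoters, was matched letter for letter in 0 of the 36 genes and in 0.37% of all genes. These matches describe letters and do not show binding.

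The targeted genes followed the labels. Stab1 lay between 12.46 and 12.62 log2 in the 6 arrays of WT and Stab2KO and between 4.98 and 5.45 in the others. Stab2 lay between 12.99 and 13.09 in WT and Stab1KO and between 5.46 and 7.60 in the others. All 10 LSEC markers other than the targets lay above the array median of 5.11 in every genotype, and the mean of that list ran from 12.55 to 12.84 over the arrays. DKO replicate 3 stands apart: it correlated with the other arrays at 0.956 to 0.968, while the others correlated with each other at 0.987 or more. The mean of 10 neutrophil markers was 12.36 log2 in it and 5.58 to 7.07 in the other 11 arrays. The mean of 14 Kupffer cell markers, those of the liver's resident macrophages, ran from 7.88 to 9.76 in WT, 8.38 to 9.31 in Stab1KO, 7.46 to 7.85 in Stab2KO and 8.17 to 9.20 in DKO. In these bulk samples fewer cells of a type and less RNA per cell cannot be told apart. The mean of 12 hepatic stellate cell markers ran from 8.31 to 8.78 in WT, 6.44 to 6.79 in Stab1KO, 7.02 to 7.15 in Stab2KO and 6.47 to 6.73 in DKO. Against WT, 8, 7 and 8 of these markers were called lower in Stab1KO, Stab2KO and DKO, by the rule given below. Their median differences were -2.16, -1.45 and -1.75. Over all genes 0.308%, 0.296% and 1.8% were called in either direction. The mean of 6 cholangiocyte markers ran from 6.99 to 7.49 in DKO and from 5.75 to 6.42 in the other genotypes. In DKO against WT 4 of 6 were called higher, where 0.754% of all genes were, with a median difference of 1.25. The part of these other cell types in the members' values was not tested, apart from the Kupffer cell covariate given below. For the members described array by array, the difference of DKO from WT is also given without replicate 3.

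Loss of Stab1 or of Stab2 alone came with 0 called members in limma's test across all genes. A call here is a Benjamini-Hochberg adjusted p, over 24011 genes, under 0.05. Over all genes 0.308% were called in Stab1KO and 0.296% in Stab2KO. An unadjusted p under 0.05 was found for 0 members in Stab1KO, where 3.91% of all genes had one, and for 5 in Stab2KO (2 lower, 3 higher), where 7.62% of all genes had one. The 3 Stab1KO arrays lay above all WT arrays in 2 members and below them in 0, where 5.36% and 4.72% of all genes did. The Stab2KO arrays lay above WT in 8 members and below in 2, where 8.09% and 7.63% of all genes did. Mean values were below WT for 17 members in Stab1KO and 20 in Stab2KO, beside 48.1% and 47.9% of all genes. The median log2 difference over the members was 0.01 in each, beside a median of 0.01 over all genes in each. The members' differences ran from -0.29 (Ctsc) to 0.33 (Ctsh) in Stab1KO and from -1.14 (Ctsc) to 0.30 (Gaa, acid alpha-glucosidase, which breaks down glycogen) in Stab2KO. The median standard error (SE) of a difference was 0.10. In 39 of 42 members the means of WT, Stab1KO and Stab2KO lay within a range of 0.3 log2. Between the single knockouts limma called 0 members, where 0.108% of all genes were called, and 3 had an unadjusted p under 0.05, where 7.07% of all genes had one. Stab1KO lay above Stab2KO in every array for 6 members and below it for 5, where 6.04% and 6.61% of all genes did.

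**Figure D1:**
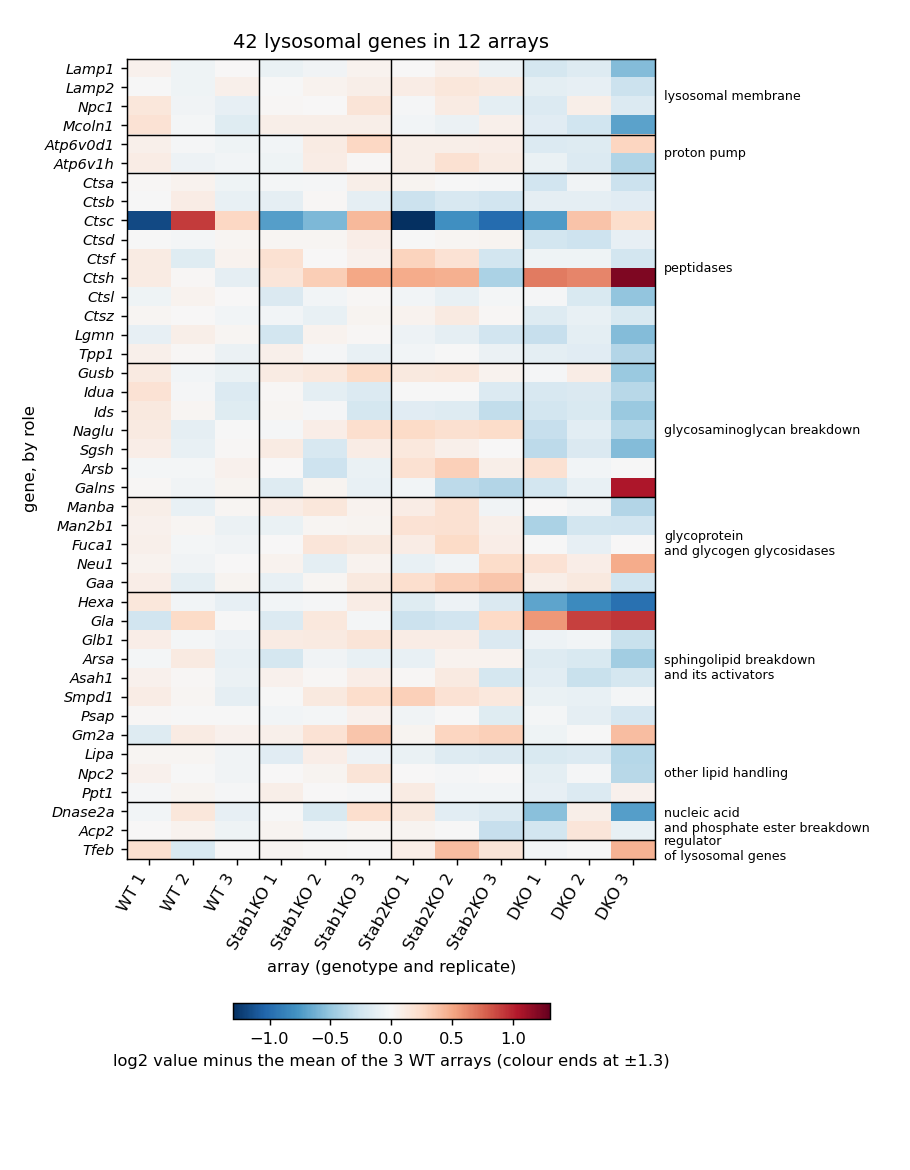
Each cell is the log2 value of a gene in an array minus that gene's mean in the 3 WT arrays, with genes in rows grouped by role and the 12 arrays in columns grouped by genotype; colour is capped at ±1.3. Most cells of Stab1KO and Stab2KO are near 0 apart from Ctsc and Ctsh, while Hexa is low and Gla high in the 3 DKO arrays.

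Loss of both receptors came with 2 called members against WT, Hexa lower and Gla higher, where 1.8% of all genes were called, 1.05% lower and 0.754% higher. Of the 42 members 35 had a mean below WT, where 56% of all genes and 60.3% of the 14406 genes above the 40th percentile of mean signal did, and 20 had an unadjusted p under 0.05, 18 of them lower, where 16.7% of all genes had one in either direction. The median difference over the members was -0.15 log2, that over all genes -0.02 and that over genes above this percentile -0.07. The 10 LSEC markers had a median difference of -0.16, with 0 called by limma and 6 at an unadjusted p under 0.05. In 18 members all 3 DKO arrays lay below all 3 WT arrays, where 15% of all genes and 20.4% of those above that percentile did. In 3 members, Ctsh, Neu1 and Gla, the DKO arrays all lay above WT, where 8.97% of all genes did. Without DKO replicate 3 the median was -0.13 beside -0.01 over all genes, and 36 members and 53.8% of all genes were below WT. In that setting 21 members had non-overlapping lower arrays, where 20.0% of all genes then had. The small downward shift depended on the scaling between arrays. After cyclic loess, a fit that removes level-dependent differences between arrays, the median was -0.026 beside 0.01 over all genes, and 25 members and 48.3% of all genes were below WT. Then 6 members had non-overlapping lower arrays, where 10.4% of all genes had. Cyclic loess also turned the split of all 432 calls, 41.9% of them higher, into 63.1% higher of 504.

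DKO replicate 3 held the lowest of the 12 values in 24 of the 42 members, where it did so in 24.1% of all genes and 34.6% of genes above the 40th percentile. DKO replicates 1 and 2 held the lowest value in 3 and 4 members. The median of the members' values minus their WT means was -0.13 in DKO replicate 1, -0.11 in replicate 2 and -0.26 in replicate 3, against -0.04 to 0.06 in the other 9 arrays. Over all genes the same median was -0.011, -0.019 and -0.051 in DKO replicates 1 to 3, and -0.008 to 0.010 in the other 9 arrays. All 3 DKO arrays thus lay below the other 9 over the members and over all genes alike, replicate 3 furthest.

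**Figure D2:**
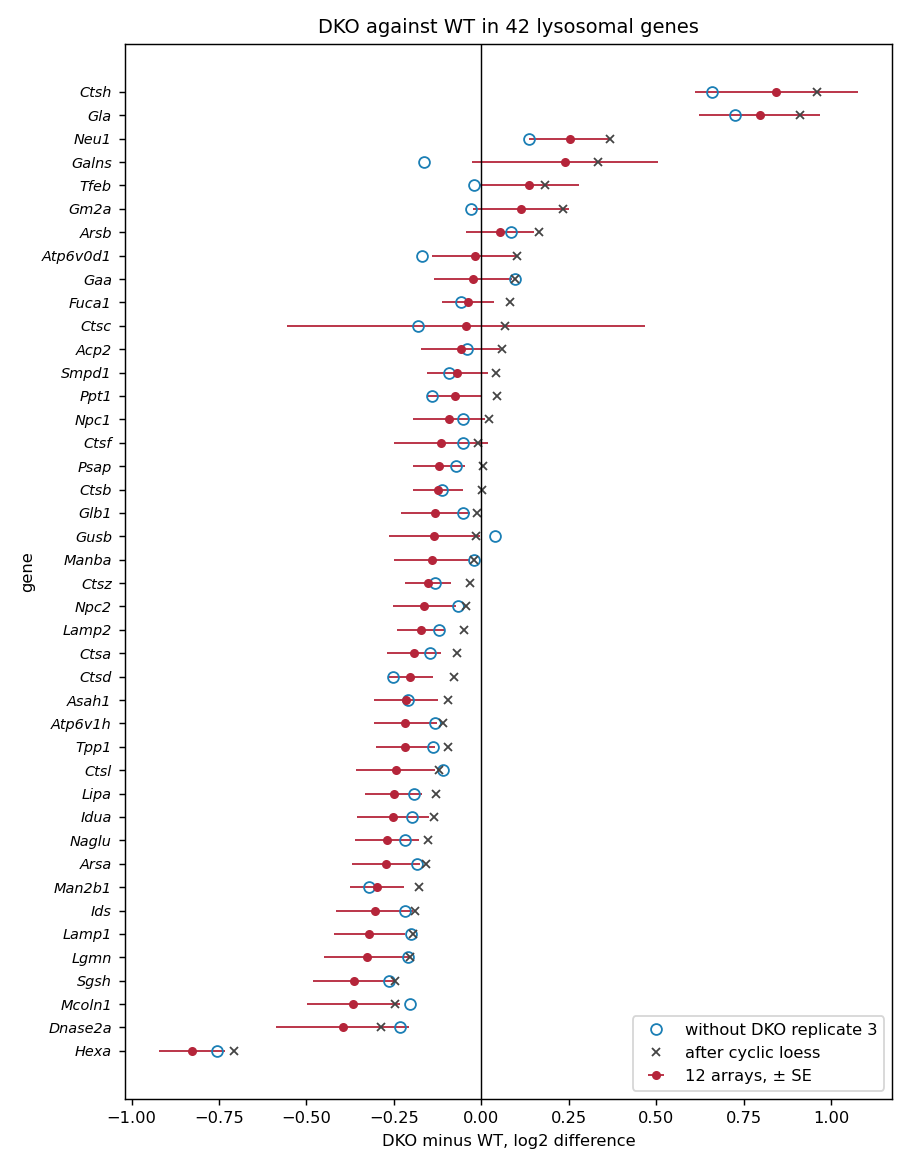
Log2 difference of DKO minus WT for each of the 42 genes, ordered by size: filled points with bars are the value and SE from all 12 arrays, open circles the value without DKO replicate 3, and crosses the value after cyclic loess. Hexa lies at -0.83, -0.76 and -0.71, Galns, Gm2a, Tfeb, Gusb and Gaa change sign without replicate 3, and values after cyclic loess lie to the right of those from all 12 arrays.

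Among the 8 genes of sphingolipid breakdown, Hexa was called lower and Gla higher in DKO against WT, where 1.8% of all genes were called. Of the 8, 6 had a mean below WT and 2 above it, where 56% of all genes lay below. Hexa (gene 15211) encodes the alpha subunit of beta-hexosaminidase, which removes N-acetylgalactosamine from gangliosides together with the activator protein encoded by Gm2a. It measured 11.15, 10.97 and 10.89 log2 in the WT arrays, 10.97, 10.99 and 11.10 in Stab1KO, 10.85, 10.94 and 10.81 in Stab2KO, and 10.32, 10.18 and 10.04 in DKO. Each DKO array was below every one of the other 9 arrays. Hexa was 1.77-fold lower in DKO than in WT (-0.83 ± 0.09 SE, adjusted p = 0.002). It fell by 0.84 against Stab1KO (adjusted p = 0.0072) and by 0.69 against Stab2KO (adjusted p = 0.01), comparisons that share the DKO arrays. Without DKO replicate 3 the difference was -0.76 from WT (adjusted p = 0.0047), -0.77 from Stab1KO (adjusted p = 0.0081) and -0.62 from Stab2KO (adjusted p = 0.014). After cyclic loess the difference from WT was -0.71 (adjusted p = 0.0024). In a fit of the 6 DKO and WT arrays alone the adjusted p was 0.05 to 2 digits and the call was lost.

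Gla (gene 11605) encodes alpha-galactosidase A, which cleaves terminal galactose from globotriaosylceramide. It measured 8.47, 8.97 and 8.71 log2 in WT, 8.54, 8.85 and 8.69 in Stab1KO, 8.44, 8.47 and 8.97 in Stab2KO, and 9.28, 9.61 and 9.65 in DKO. The lowest DKO array lay above the highest of the other 9. Gla was 1.74-fold higher in DKO than in WT (0.80 ± 0.17 SE, adjusted p = 0.048) and 1.85-fold higher than in Stab2KO (0.89, adjusted p = 0.029). Against Stab1KO the difference of 0.82 did not pass (adjusted p = 0.058). The call against WT was narrow: it was lost in 11 of 12 fits that each left out an array, with differences of 0.67 to 0.92 and adjusted p-values up to 0.15. Without DKO replicate 3 the difference was 0.73 from WT (adjusted p = 0.10) and 0.82 from Stab2KO (adjusted p = 0.05 to 2 digits, still called).

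**Figure D3:**
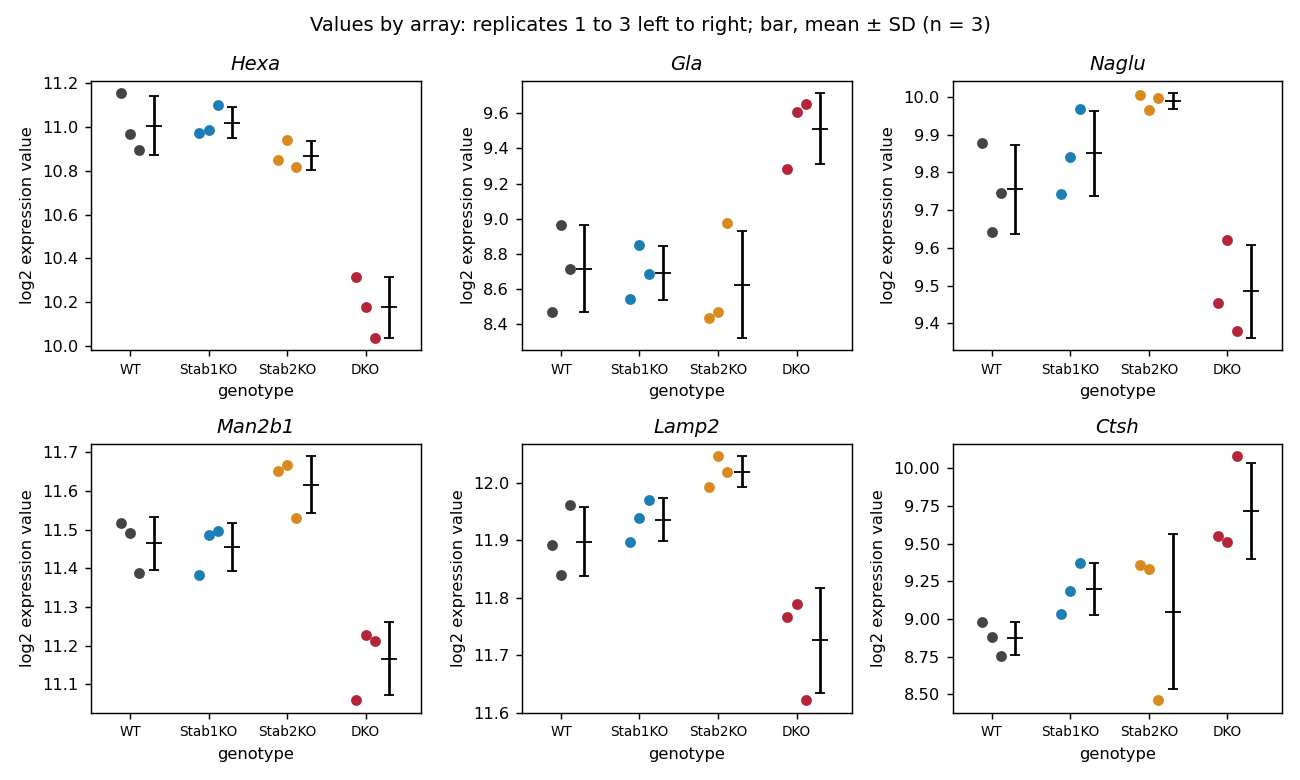
Log2 expression values of 6 genes by genotype, with the 3 arrays of each genotype as points from replicate 1 to 3 and the mean ± SD (n = 3) as a bar beside them; each panel has its own axis. In Hexa, Naglu, Man2b1 and Lamp2 the 3 DKO points lie below the other 9, and in Gla and Ctsh above them.

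Whether the DKO value differs from the sum of both single losses was tested as a departure from additivity: the change from Stab2KO to DKO minus the change from WT to Stab1KO. By limma 0 of 42 members were called, where 0.05% of all genes were, and 11 had an unadjusted p under 0.05, where 12.5% of all genes had one. It was -0.70 ± 0.13 (SE) for Hexa (adjusted p = 0.085) and 0.91 ± 0.25 for Gla (adjusted p = 0.16). The departure for Hexa passed in the fit with array weights, the only one of the alternatives tried that called a member here.

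The other genes of this role, Glb1, Arsa, Asah1, Smpd1, Psap and Gm2a, were not called in any contrast. Glb1, Arsa, Asah1 and Smpd1 encode beta-galactosidase, arylsulfatase A, acid ceramidase and acid sphingomyelinase. Psap and Gm2a encode activator proteins of sphingolipid breakdown. Gm2a, whose product works with that of Hexa, measured 9.48 ± 0.14 (SD, n = 3) in WT and 9.60 ± 0.25 in DKO. Psap measured 12.67 ± 0.02 in WT and 12.55 ± 0.10 in DKO. The differences of these 6 genes in DKO against WT ran from -0.27 (Arsa) to 0.11 (Gm2a), and from -0.21 (Asah1) to -0.03 (Gm2a) without DKO replicate 3.

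Against Stab2KO, 5 members were called in DKO, where 3.42% of all genes were. Hexa, Naglu, Man2b1 and Lamp2 were lower, where 2.12% of all genes were, and Gla was higher, where 1.3% were. An unadjusted p under 0.05 was found for 17 members, where 18.9% of all genes had one. The DKO arrays lay below all Stab2KO arrays in 17 members and above them in 4, where 13.8% and 7.37% of all genes did. Naglu (gene 27419) encodes alpha-N-acetylglucosaminidase of heparan sulfate breakdown. Its values were 9.88, 9.64 and 9.75 in WT, 9.74, 9.84 and 9.97 in Stab1KO, 10.01, 9.97 and 9.996 in Stab2KO, and 9.45, 9.62 and 9.38 in DKO. The difference of DKO from Stab2KO was -0.50 ± 0.09 (SE), or 1.42-fold lower (adjusted p = 0.022), and that from WT was -0.27, which did not pass (adjusted p = 0.17). Without DKO replicate 3 the differences were -0.45 (adjusted p = 0.039) and -0.22 (adjusted p = 0.36). Stab2KO itself lay 0.23 above WT (adjusted p = 0.55), so the called difference spans both sides of the WT level.

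Man2b1 (gene 17159) encodes lysosomal alpha-mannosidase, which trims the mannose core of glycoproteins. It measured 11.52, 11.49 and 11.39 in WT, 11.38, 11.49 and 11.50 in Stab1KO, 11.65, 11.67 and 11.53 in Stab2KO, and 11.06, 11.23 and 11.21 in DKO. The 3 DKO arrays were the lowest of the 12. The difference from Stab2KO was -0.45 ± 0.08 (SE, adjusted p = 0.019) and that from WT was -0.30 (adjusted p = 0.081). They were -0.47 (adjusted p = 0.024) and -0.32 (adjusted p = 0.11) when DKO replicate 3 was left out.

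Lamp2 (gene 16784) encodes a heavily glycosylated protein of the limiting membrane that takes part in autophagy. It measured 11.89, 11.84 and 11.96 in WT, 11.90, 11.94 and 11.97 in Stab1KO, 11.99, 12.05 and 12.02 in Stab2KO, and 11.77, 11.79 and 11.62 in DKO. DKO differed from Stab2KO by -0.29 ± 0.07 (SE, adjusted p = 0.047) and from WT by -0.17 (adjusted p = 0.24). These differences were -0.24 (adjusted p = 0.094) and -0.12 (adjusted p = 0.51) when DKO replicate 3 was left out. This call was lost in all 12 fits that left out an array (adjusted p up to 0.15). Naglu and Gla lost theirs against Stab2KO in 3 such fits each, Man2b1 in 2 and Hexa in 1, without Stab2KO replicate 2, where its adjusted p was 0.052. Without Stab2KO replicate 2 there were 0 called members in this contrast, and without replicate 1 there was 1. The Kupffer cell markers lay lower in Stab2KO than in DKO with a median difference of 0.98. Of the 14 markers 1 was called, Cd68, where 3.42% of all genes were. With the mean of that list as a covariate Hexa alone was called.

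Against Stab1KO, where 0.945% of all genes were called and 0.4% were called lower, Hexa was the called member. An unadjusted p under 0.05 was found for 21 members, where 16.2% of all genes had one. The DKO arrays lay below all Stab1KO arrays in 20 members and above them in 3, where 12.8% and 6.88% of all genes did. In both contrasts of DKO with a single knockout 35 of 42 members lay below it. The members' medians were -0.20 against Stab1KO and -0.18 against Stab2KO, where the medians of all genes were -0.03 in each. Genes above the 40th percentile of mean signal had a median of -0.08 in each. In DKO against Stab1KO 58.6% of all genes lay below 0, and 57.8% did in DKO against Stab2KO. After cyclic loess the members' medians were -0.078 and -0.065. These contrasts and that with WT share the DKO arrays, so they are not separate evidence of a shift.

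Of the 10 peptidase genes 0 were called in any contrast, where 0.05% to 3.42% of all genes were called per contrast. In DKO 9 lay below WT, where 56% of all genes and 60.3% of those above the 40th percentile of mean signal did. Ctsh, a cysteine peptidase that acts mainly as an aminopeptidase, went the other way. Its values were 8.98, 8.88 and 8.75 in WT, 9.03, 9.19 and 9.37 in Stab1KO, 9.36, 9.33 and 8.46 in Stab2KO, and 9.55, 9.51 and 10.08 in DKO. The DKO arrays were the highest, and the spread in Stab2KO came from replicate 3. The difference of DKO from WT was 0.84 ± 0.23 (SE) and did not pass (adjusted p = 0.10), and it was 0.66 without DKO replicate 3 (adjusted p = 0.22).

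Ctsd, the major aspartic peptidase of lysosomes, measured 12.37, 12.35 and 12.40 in WT, 12.40, 12.40 and 12.46 in Stab1KO, 12.37, 12.40 and 12.40 in Stab2KO, and 12.13, 12.11 and 12.27 in DKO. The 3 DKO arrays were below the other 9, with a difference from WT of -0.20 ± 0.06 (SE, adjusted p = 0.15), or -0.25 without DKO replicate 3 (adjusted p = 0.097). Ctsb, a cysteine peptidase, measured 13.31, 13.42 and 13.23 in WT, 13.21, 13.34 and 13.21 in Stab1KO, 13.04, 13.12 and 13.07 in Stab2KO, and 13.21, 13.21 and 13.18 in DKO. Its lowest arrays were those of Stab2KO, -0.25 ± 0.07 from WT (adjusted p = 0.36). In DKO the difference was -0.12, or -0.11 without replicate 3, and -0.07 without WT replicate 2. Ctsa, the protective protein of beta-galactosidase and neuraminidase, Ctsf, Ctsl, Ctsz, the asparaginyl endopeptidase gene Lgmn and the tripeptidyl peptidase gene Tpp1 differed in DKO from WT by -0.33 (Lgmn) to -0.12 (Ctsf), none of them called, and by -0.21 (Lgmn) to -0.05 (Ctsf) without DKO replicate 3.

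Ctsc encodes dipeptidyl peptidase 1, which is known for activating serine peptidases of immune cell granules. It was chosen for description after its values were seen, because it varied most within genotypes, with an SD of 1.07 log2 in WT against a median of 0.10 over members and genotypes. It measured 7.71, 9.80 and 9.15 in WT, 8.17, 8.31 and 9.31 in Stab1KO, 7.27, 8.09 and 7.89 in Stab2KO, and 8.15, 9.26 and 9.12 in DKO. Every genotype overlapped WT. The Kupffer cell marker mean was 7.88, 9.76 and 9.11 in the same WT arrays, 8.41, 8.38 and 9.31 in Stab1KO, 7.46, 7.85 and 7.84 in Stab2KO, and 8.17, 9.20 and 8.42 in DKO. WT replicate 2 was the highest and Stab2KO replicate 1 the lowest array in both. The difference of Ctsc in Stab2KO against WT was -1.14 ± 0.51 (SE, adjusted p = 0.65), and it was -1.72 without WT replicate 1, -0.68 without WT replicate 2 and 0.19 with the Kupffer cell marker mean as a covariate. Among 14 Kupffer cell markers 0 were called in Stab2KO against WT, where 0.296% of all genes were. An unadjusted p under 0.05 was found for 10 of them, where 7.62% of all genes had one. Their median difference was -1.28. The part of Kupffer cells in the Ctsc values was not tested beyond that covariate.

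**Figure D4:**
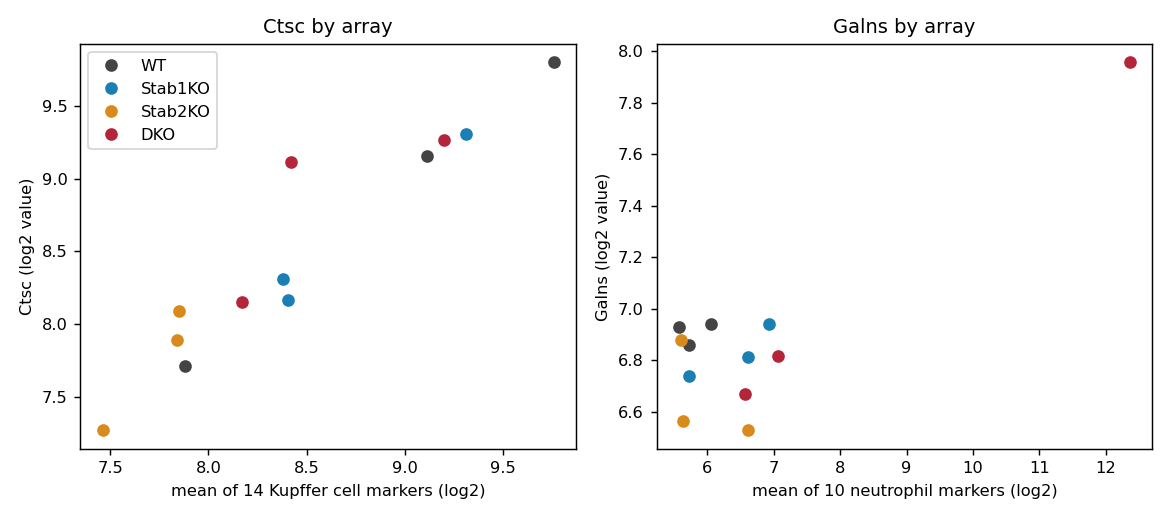
Left, the log2 value of Ctsc in each of 12 arrays against the mean log2 value of 14 Kupffer cell markers; right, the log2 value of Galns against the mean of 10 neutrophil markers, with colour for genotype. Ctsc is highest and lowest in the arrays where the marker mean is, and the Galns value of 7.96 belongs to the array with the neutrophil mean of 12.36.

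The 7 genes of glycosaminoglycan breakdown hold Naglu, described above, and 6 members that were not called. Per contrast 0.05% to 3.42% of all genes were called. Sgsh, sulfamidase of heparan sulfate breakdown, measured 9.81, 9.63 and 9.75 in WT, 9.84, 9.52 and 9.83 in Stab1KO, 9.87, 9.80 and 9.73 in Stab2KO, and 9.39, 9.54 and 9.16 in DKO. DKO lay below WT in all arrays but overlapped Stab1KO, and the difference from WT was -0.36 ± 0.12 (SE, adjusted p = 0.15), or -0.26 without DKO replicate 3 (adjusted p = 0.33). Gusb, Idua and Ids, which encode beta-glucuronidase, alpha-L-iduronidase and iduronate 2-sulfatase, differed in DKO from WT by -0.13, -0.25 and -0.31. Leaving out DKO replicate 3 gave 0.04, -0.20 and -0.22. Arsb, arylsulfatase B, differed by 0.05.

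Galns, which encodes the sulfatase of keratan sulfate and was also chosen for description after its values were seen, was decided by a single array. It measured 6.93, 6.86 and 6.94 in WT, 6.74, 6.94 and 6.81 in Stab1KO, 6.88, 6.56 and 6.53 in Stab2KO, and 6.67, 6.82 and 7.96 in DKO. DKO replicate 3 lay far above the other 11 arrays. The difference from WT was 0.24 ± 0.27 (SE) with it and -0.17 ± 0.11 without it, and neither passed (adjusted p = 0.72 and 0.59). The same array held the high neutrophil marker mean, and the part of those cells in the Galns value was not tested.

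The 5 glycosidase genes of glycoprotein and glycogen breakdown hold Man2b1, Manba (beta-mannosidase), Fuca1 (alpha-L-fucosidase), Neu1 (sialidase) and Gaa. Apart from Man2b1, 0 were called in any contrast, where 0.05% to 3.42% of all genes were called per contrast. Neu1 measured 8.81 ± 0.04 (SD, n = 3) in WT and 9.06 ± 0.20 in DKO, and its difference of 0.25 was 0.14 without DKO replicate 3. Gaa measured 9.90 ± 0.11 in WT, 9.92 ± 0.11 in Stab1KO, 10.19 ± 0.07 in Stab2KO and 9.88 ± 0.21 in DKO.

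Of the 4 membrane protein genes all lay below WT in DKO, where 56% of all genes did. None was called there, where 1.8% of all genes were. Lamp1, the companion of Lamp2 on the limiting membrane, measured 12.35, 12.25 and 12.30 in WT, 12.21, 12.25 and 12.34 in Stab1KO, 12.30, 12.37 and 12.22 in Stab2KO, and 12.07, 12.13 and 11.74 in DKO. The 3 DKO arrays were the lowest, replicate 3 the lowest of them. The difference from WT was -0.32 ± 0.10 (SE, adjusted p = 0.14) and moved to -0.20 without replicate 3 (adjusted p = 0.28). Mcoln1, the lysosomal cation channel TRPML1, measured 9.68 ± 0.17 (SD, n = 3) in WT and 9.31 ± 0.29 in DKO, with a difference of -0.37 that was -0.20 without replicate 3. Npc1, which exports cholesterol, measured 9.01 ± 0.13 in WT and 8.92 ± 0.14 in DKO.

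The proton pump subunit genes Atp6v0d1 and Atp6v1h were not called. Atp6v1h measured 8.12, 7.96 and 7.995 in WT, 7.97, 8.12 and 8.04 in Stab1KO, 8.10, 8.23 and 8.14 in Stab2KO, and 7.94, 7.85 and 7.64 in DKO. The difference of DKO from WT was -0.22 ± 0.09 (SE, adjusted p = 0.26), with no overlap between the arrays of both genotypes, and moved to -0.13 without DKO replicate 3 (adjusted p = 0.55). Atp6v0d1 measured 10.36 ± 0.06 (SD, n = 3) in WT and 10.35 ± 0.26 in DKO, where replicate 3 was the highest of the 12 arrays, and its difference of -0.02 was -0.17 without that array.

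Lipa, acid lipase of cholesteryl esters, measured 11.67, 11.66 and 11.60 in WT, 11.50, 11.73 and 11.58 in Stab1KO, 11.56, 11.47 and 11.46 in Stab2KO, and 11.44, 11.46 and 11.28 in DKO. DKO lay below WT in every array and overlapped Stab2KO, with a difference from WT of -0.25 ± 0.08 (SE, adjusted p = 0.15), or -0.19 without DKO replicate 3 (adjusted p = 0.34). Npc2, the luminal partner of Npc1, and Ppt1, a palmitoyl thioesterase, differed in DKO from WT by -0.16 and -0.07, and by -0.07 and -0.14 without DKO replicate 3.

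Dnase2a, the acid nuclease of lysosomes, measured 8.20, 8.38 and 8.13 in WT, 8.24, 8.04 and 8.46 in Stab1KO, 8.37, 8.10 and 8.06 in Stab2KO, and 7.69, 8.32 and 7.52 in DKO. Replicates 1 and 3 of DKO were the lowest arrays while replicate 2 lay among the WT arrays, and the difference of -0.40 ± 0.19 (SE) did not pass (adjusted p = 0.33). It was -0.23 without DKO replicate 3 and -0.63 without DKO replicate 2. Acp2, lysosomal acid phosphatase, differed by -0.06. Tfeb itself gave the lowest signal of the list, with a mean above that of 52.7% of genes, so its values hold an unknown share of background. It measured 5.49, 5.09 and 5.28 in WT, 5.32, 5.30 and 5.30 in Stab1KO, 5.38, 5.69 and 5.45 in Stab2KO, and 5.25, 5.29 and 5.73 in DKO. The genotypes overlapped, and the difference of DKO from WT was 0.14 ± 0.14 (adjusted p = 0.70), or -0.02 without DKO replicate 3.

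Of 72 further lysosomal genes 66 were measured: other hydrolases, membrane proteins, pump subunits, sorting receptors and the TFE factors with nutrient sensing genes. In Stab1KO and in Stab2KO against WT 0 were called, where 0.308% and 0.296% of all genes were. An unadjusted p under 0.05 was found for 3 and 4, where 3.91% and 7.62% of all genes had one. In DKO against WT 1 was called, lower, where 1.05% of all genes were called lower. The median was -0.18, and 48 of 66 lay below 0, where 56% of all genes did. Above the 40th percentile of mean signal 60.3% of genes did. An unadjusted p under 0.05 was found for 25, where 16.7% of all genes had one. The DKO arrays lay below all WT arrays in 21 and above them in 2, where 15% and 8.97% of all genes did. The called gene was Hyal2, a hyaluronidase of membranes and lysosomes. It measured 11.14, 10.98 and 11.09 in WT, 10.87, 11.09 and 11.08 in Stab1KO, 11.17, 11.19 and 11.06 in Stab2KO, and 10.53, 10.75 and 10.24 in DKO. The DKO arrays were the lowest of the 12, with a difference from WT of -0.57 ± 0.12 (SE, adjusted p = 0.044), or -0.44 without DKO replicate 3. This call was lost in 10 of 12 fits that left out an array, with the replicate number as a block (adjusted p = 0.056), with the Kupffer cell covariate (adjusted p = 0.077) and with the compared arrays alone (adjusted p = 0.16).

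Against Stab2KO, Hyal2 and the chloride transporter gene Clcn7 were lower in DKO (-0.63 and -0.44, adjusted p = 0.027 and 0.03), and Cd68 was higher by 1.81 ± 0.40 (SE, adjusted p = 0.039). Cd68 is a macrophage protein of late endosomes and belongs to the Kupffer cell marker list as well. Against Stab1KO the dipeptidyl peptidase gene Dpp7 was lower by -0.64 (adjusted p = 0.045). Each of these 4 calls was lost without some single array, with the Kupffer cell covariate and with the compared arrays alone. For Cd68 that covariate holds the gene's own values, so the loss there cannot serve as a check of its call. Without DKO replicate 3 the differences were -0.50 for Hyal2, -0.34 for Clcn7, 1.79 for Cd68 and -0.53 for Dpp7, the last 2 no longer called. Of 13 pump subunits 11 lay below WT in DKO, where 56% of all genes did. Their median was -0.22, and the largest difference was in Atp6v1g1 (-0.42, adjusted p = 0.21). Of these subunits 0 were called, where 1.8% of all genes were. The 6 sorting genes had a median of 0.02, with the largest difference in Sort1 (0.53, adjusted p = 0.13).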

How the data were processed

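The authors deposited log2 expression values from Affymetrix arrays of 12 LSEC pools. They were made with RMA per the submitters' processing notes, that is, with background correction, quantile normalization and probe summary. For its version, the probe set definition and the genome build, the sources used here give nothing. No detection calls were used, and the number of arrays limits the precision. Per the labels each array is a biological replicate.

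Of 24973 rows, 24015 had 1 gene symbol in the platform annotation, 0 had several and 958 had none there. The row with the highest mean was kept per symbol, which left 24011 genes. limma 3.58.1 in R 4.3.3 fitted 4 genotype means over the 12 arrays, with eBayes without trend or robust options. It tested 7 contrasts, two-sided, with Benjamini-Hochberg adjustment over all genes within each. The model shares a gene's spread over all genotypes.

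The members, lists and tests were chosen with earlier results of these data known. Members with values in every array are those called in a contrast and the 6 others with the lowest unadjusted p against WT, plus the member with the largest DKO difference of each remaining role. Further lysosomal genes are named where called, or by the largest difference of their list. Percentages over all genes give the background. Tried as alternatives were a replicate block, a filter at the 40th percentile of mean signal, trend and robust eBayes, array weights, cyclic loess, every row, a Kupffer cell covariate, the compared arrays alone and each array left out.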

Additional observations from a re-analysis of the deposited data

How the results depend on the processing

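The counts of called members were small and moved with the fit. In DKO against WT, 2 members were called, 5 with array weights (Ctsd, Ctsh and Man2b1 added), 0 with the 6 compared arrays alone, and 1 to 3 when an array was left out, Hexa among them each time. In DKO against Stab1KO, 1 was called, 2 with the replicate block, the low-signal filter, trend and robust eBayes, cyclic loess or the Kupffer cell covariate (Gla added), 3 with array weights (Ctsd and Gla added), 0 with the compared arrays alone, and 1 to 2 with an array left out. In DKO against Stab2KO, 5 were called, 3 after cyclic loess, 1 with the Kupffer cell covariate, 0 with the compared arrays alone, and 0 to 4 with an array left out. The departure from additivity had 0, and 1 (Hexa) with array weights. After cyclic loess the median difference over members was -0.026 against WT, -0.078 against Stab1KO and -0.065 against Stab2KO, and 6 instead of 18 members had all DKO arrays below WT. With an array left out that count was 18 to 23, and the median against Stab1KO was -0.23 to -0.14. Over all genes, the 432 calls of DKO against WT were 1111 with array weights, 97 with the compared arrays alone and 125 to 510 with an array left out. The 227 against Stab1KO were 466, 18 and 22 to 357 in the same order. The 822 against Stab2KO were 1789 with array weights, 189 with the Kupffer cell covariate, 4 with the compared arrays alone and 45 (without Stab2KO replicate 2) to 854 with an array left out. The 12 of the departure were 199 with array weights and 3 to 112 with an array left out. The 71 of Stab2KO against WT were 148 with array weights and 4 with the Kupffer cell covariate. Fits of the compared arrays hold fewer samples. For the other changes the cause was not tested. In 0 cases did a called gene change direction. The main fit did not pair samples by the labels' replicate numbers. Same-numbered arrays correlated in their deviations at -0.06 to 0.29, over 0.1 in 4 of 18 pairs. Differently numbered arrays of other genotypes correlated at -0.27 to 0.21, and 7 of 12 arrays correlated best with their own number. Whether the numbers mark samples handled together was not tested. With the replicate block Lamp2 lost its call against Stab2KO (adjusted p = 0.074), and Hyal2 lost its call against WT (adjusted p = 0.056).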

Other observations

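Rragd, which encodes a Rag GTPase that links amino acid sensing to TORC1 at the lysosome, was measured at 5.82, 5.54 and 5.72 log2 in WT, 4.72, 4.74 and 4.17 in Stab1KO, 4.82, 4.70 and 4.55 in Stab2KO, and 6.35, 4.92 and 7.30 in DKO. All 6 arrays of the single knockouts were below the WT arrays, while DKO replicates 1 and 3 were above them and replicate 2 below. The differences from WT of -1.15 ± 0.45 (SE) in Stab1KO and -1.01 ± 0.45 in Stab2KO did not pass (unadjusted p = 0.027 and 0.047), and the departure from additivity of 2.65 ± 0.63 did not either (adjusted p = 0.13). Many of these values lie near the array median of 5.11 and hold an unknown share of background.

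Cd63, a tetraspanin of late endosomes, measured 6.01, 5.32 and 5.27 in WT and 6.41, 5.86 and 7.60 in DKO, with DKO replicate 3 the highest (difference 1.09, adjusted p = 0.15). Ctss, a cysteine peptidase of antigen-presenting cells, measured 8.53, 10.41 and 9.88 in WT, 9.15, 9.28 and 10.33 in Stab1KO, 8.30, 8.59 and 8.60 in Stab2KO, and 8.96, 9.75 and 9.26 in DKO. As with Ctsc, WT replicate 2 was the highest and Stab2KO replicate 1 the lowest array. Both genes were chosen after their values were seen.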
